A study of Capra aegagrus with 10 samples.

Results

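The miR-15/16 family is a set of small RNAs whose 5p strands begin with the same short stretch, the seed, by which a miRNA recognises its target messages. The rows of the deposited small RNA table named chi-miR-15a, chi-miR-15b, chi-miR-16, chi-miR-16a, chi-miR-16b, chi-miR-195, chi-miR-497, chi-miR-424, chi-miR-503 or chi-miR-322, on either arm of the hairpin, were taken as its members. This gave 12 rows of the 1403 miRNAs in the table, 369 of which are known miRNAs with the goat prefix and the others predicted. The rows cover 7 of the 10 names searched, and chi-miR-16 (without a letter), chi-miR-503 and chi-miR-322 gave no row. The members are the 5p and 3p arms of miR-15a, miR-15b, miR-16b, miR-195 and miR-424 and the 5p arms of miR-16a and miR-497. The choice used names and no measured value.

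The family is known for restraining cell division. In human and mouse cells its 5p strands lower G1 cyclins, their kinases and other regulators of entry into the cell cycle, and miR-15a and miR-16 also lower the survival factor BCL2. The genes lie in clusters that make their members together: miR-15a and miR-15b each beside a copy of miR-16, miR-195 beside miR-497, and miR-424 (called miR-322 in mice) beside miR-503 on the X chromosome. In the mouse mammary gland the cluster of miR-424 and miR-503 takes part in the involution that follows weaning. The 3p strands come from the other side of the same hairpins and carry other seeds, so they belong to the family by origin and not by targets. Goat mature sequences were not used here.

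The libraries came from mammary gland cells of Lanshan dairy goats, recorded under Capra aegagrus, that were kept in 3D culture and given virus to raise or lower the long noncoding RNA lncRNA55666. There were 5 groups of 2 libraries: Blank, whose handling is not described further, OV55666 (overexpression), Lv5NC (its control), KD553 (knockdown) and Lv3NC (its control). The labels do not spell out the group names, and the controls were assigned because the study's design names 5NC with overexpression and 3NC with knockdown. Nothing states that the libraries of a group came from separate cultures or animals, so the spread between them may be technical, and the promoter of the virus, the share of cells it reached and the level of lncRNA55666 were not analysed here.

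The 10 libraries held 3108495 to 8739602 miRNA reads, known and predicted together. Levels are given as CPM, the reads of a miRNA relative to these totals after TMM scaling, and 1 CPM stood for 3.42 to 9.95 reads. CPM has no length term, and mature miRNAs are all of nearly the same length. Markers of fibroblasts and smooth muscle (miR-143, miR-145, miR-199a, miR-199b and miR-214; 9 of 9 rows passed the filter described next) summed to 11015 to 23400 CPM, whereas the epithelial miR-200 family, miR-141 and miR-429 (2 of 5 rows passed) summed to 6.951 to 77.96 CPM. miR-205, also on the epithelial list, had no row. The miRNA markers of epithelium that had a row were thus scarce in cells labelled mammary gland. Markers of red blood cells (miR-451 and miR-144, with no row for miR-486) summed to 147.9 to 984 CPM, of striated muscle to 75.39 to 384.1 CPM and of endothelium to 27.89 to 102.1 CPM. The library KD553 replicate 2 stood apart from the other 9. Its white blood cell markers (miR-142, miR-150 and miR-223; 3 rows, of which 2 passed, none for miR-142) summed to 1786 CPM against 27.65 to 116.6 CPM elsewhere. Its epithelial markers summed to 77.96 CPM against 6.951 to 23.53 CPM, and 26.3% of its reads lay on RF identifiers, which the table lists without names, against 4.81% to 16.2%. Fold changes of members that rest on this library are also given without it. Because the samples are bulk cultures, a change in the number of cells of a type and a change in RNA per cell cannot be told apart.

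Of the 12 members, 8 reached 5 CPM in at least 2 libraries and were tested, and 4 did not. By mean level they ranked from 23 (miR-16b-5p) to 208 (miR-15b-3p) among the 369 known miRNAs. Reads were counted by the authors in a way the sources used here do not describe, and mature sequences were not compared. How well reads of miR-16a and miR-16b, or of miR-15a and miR-15b, were told apart was thus not checked.

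**Figure D1:**
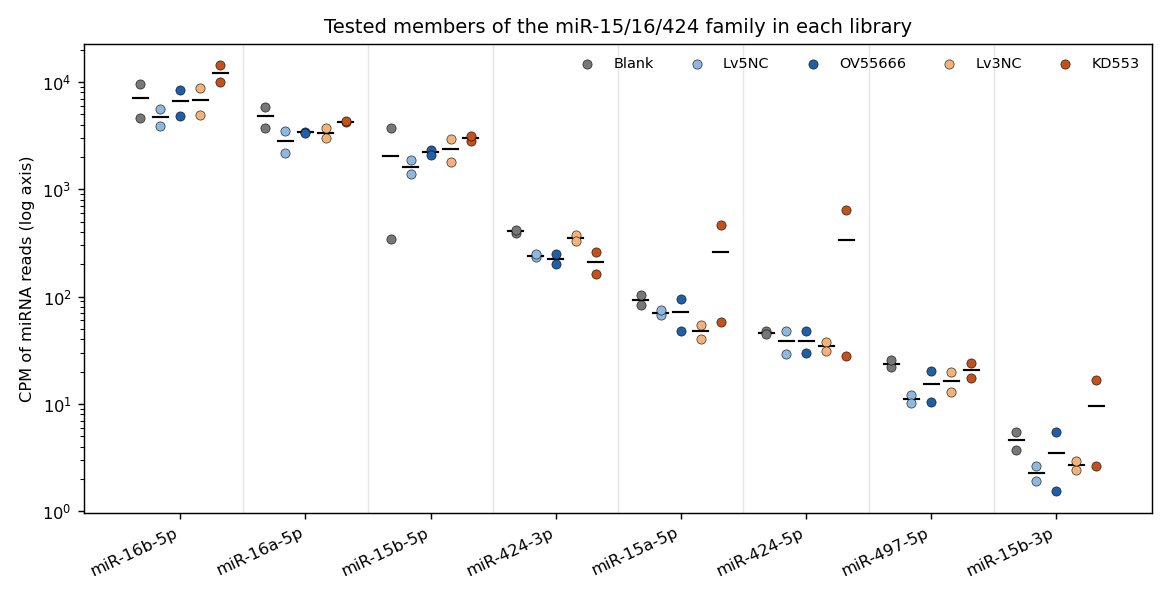
Level of each of the 8 tested members in the 10 libraries, in CPM of miRNA reads on a log axis. Each point is 1 library, coloured by group, and each black line is the mean of the 2 libraries of a group. The KD553 libraries lie far apart for miR-424-5p (28.01 and 645.9 CPM) and miR-15a-5p (57.86 and 460.2 CPM), and the Blank libraries for miR-15b-5p (3748 and 341.3 CPM).

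miR-16b-5p, one of the 2 goat forms of miR-16, was the most abundant member. It stood at 9622 and 4604 CPM in Blank, 3911 and 5539 CPM in Lv5NC, 8482 and 4833 CPM in OV55666, 4954 and 8721 CPM in Lv3NC, and 9983 and 14284 CPM in KD553. The group means ran from KD553 (12134 ± 3041 CPM, SD, n = 2) through Blank (7113 ± 3548), Lv3NC (6838 ± 2664) and OV55666 (6657 ± 2580) to Lv5NC (4725 ± 1151). Both KD553 libraries lay above every other library on this scale, while the libraries of the other 4 groups overlapped with those of their neighbours in that order.

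miR-16a-5p, the other form, stood at 5857 and 3731 CPM in Blank, 2186 and 3479 CPM in Lv5NC, 3450 and 3360 CPM in OV55666, 3004 and 3704 CPM in Lv3NC, and 4225 and 4323 CPM in KD553. Its means were 4794 ± 1503 CPM in Blank, 4274 ± 69.09 in KD553, 3405 ± 63.79 in OV55666, 3354 ± 494.7 in Lv3NC and 2833 ± 914 in Lv5NC (SD, n = 2). Only between KD553 and OV55666 did neighbours in this order not overlap.

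miR-15b-5p, which in mammals is made from 1 precursor transcript with a copy of miR-16, stood at 3748 and 341.3 CPM in Blank, 1380 and 1874 CPM in Lv5NC, 2333 and 2078 CPM in OV55666, 1790 and 2918 CPM in Lv3NC, and 2820 and 3145 CPM in KD553. Its lowest value, in Blank replicate 2, rested on 3394 reads in the library with the most miRNA reads. The other 9 libraries lay between 1380 and 3748 CPM. Among the 448 miRNAs tested, miR-15b-5p ranked 12 from the lowest by the difference of this library from the median of the other 9, at -2.77 on the log2 scale, while miR-16b-5p differed by -0.881 and miR-16a-5p by 0.101. The order of the group means, from KD553 (2982 ± 229.5 CPM) through Lv3NC (2354 ± 797.6), OV55666 (2205 ± 180) and Blank (2045 ± 2409) to Lv5NC (1627 ± 349.3), depends on that library for the place of Blank, and neighbours in it overlapped.

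miR-15a-5p was far scarcer than miR-15b-5p. It stood at 83.12 and 103.1 CPM in Blank, 66.92 and 74.24 CPM in Lv5NC, 48.15 and 94.7 CPM in OV55666, 40.58 and 54.62 CPM in Lv3NC, and 57.86 and 460.2 CPM in KD553. The last library held 1576 reads of it against 200 to 1025 in the others. The group means were 259 ± 284.5 CPM in KD553, 93.09 ± 14.1 CPM in Blank, 71.42 ± 32.92 CPM in OV55666, 70.58 ± 5.178 CPM in Lv5NC and 47.6 ± 9.934 CPM in Lv3NC, and of these neighbours only Lv5NC and Lv3NC did not overlap. Without KD553 replicate 2 the range was 40.58 to 103.1 CPM, with both Blank libraries above those of Lv5NC and Lv3NC.

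The members differed in how evenly they kept step. miR-16b-5p exceeded miR-15b-5p 2.33-fold to 4.54-fold in 9 libraries (median of all 10, 2.97) and 13.5-fold in Blank replicate 2. miR-16a-5p exceeded miR-15a-5p 32.7-fold to 74-fold in 9 libraries and 9.39-fold in KD553 replicate 2. The 2 forms of miR-16 stayed within 1.23-fold to 3.3-fold of each other, with miR-16b-5p the higher in all 10 libraries. The pairs follow the letters of the names, since the table does not give the loci.

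**Figure D2:**
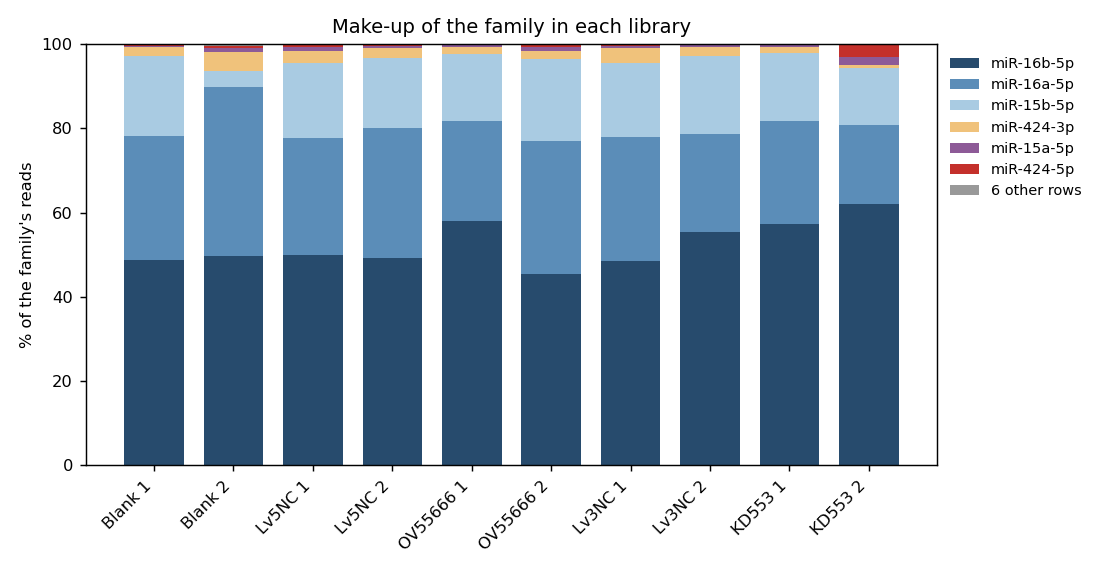
Share of each member in the reads of the family, in percent, for each of the 10 libraries. Both forms of miR-16 together held 77% to 89.8% of the reads. miR-15b-5p had its smallest share, 3.68%, in Blank replicate 2, and miR-424-5p its largest, 2.8%, in KD553 replicate 2.

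All 12 rows together made up 0.8465% to 2.181% of the miRNA reads. The stacked shares by library show that both forms of miR-16 held 77% to 89.8% of the family's reads, and with miR-15b-5p 93.5% to 97.9%. The summed level was 20228 ± 4008 CPM in KD553, 14529 ± 7426 CPM in Blank, 12998 ± 3933 CPM in Lv3NC, 12622 ± 2801 CPM in OV55666 and 9549 ± 2417 CPM in Lv5NC (SD, n = 2). The lower KD553 library (17394 CPM) lay above the higher Lv3NC library (15779 CPM). With median-of-ratios scaling these 2 libraries stood at 16423 and 16474 CPM, so KD553 and Lv3NC overlapped slightly. Scaled instead to all reads in the table, the family held 3233 to 3817 CPM of that total in KD553 and 2469 to 4450 in Lv3NC, which overlap. On that scale both Blank libraries, at 4349 and 4704, lay above both KD553 libraries. The mean of KD553 was thus the highest with TMM scaling, median-of-ratios scaling and the miRNA total only, and there too KD553 overlapped Blank. The higher Blank library lay above the lower KD553 library with TMM (19781 against 17394 CPM) and with median-of-ratios scaling (18840 against 16423). With the miRNA total, at 21807, it lay above both KD553 libraries (14997 and 19926).

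miR-424 was read mainly from its 3p arm. chi-miR-424-3p stood at 394.1 and 419.6 CPM in Blank, 232.5 and 249.3 CPM in Lv5NC, 247.7 and 201.8 CPM in OV55666, 374.9 and 327.6 CPM in Lv3NC, and 257.8 and 162.4 CPM in KD553. chi-miR-424-5p, the arm that carries the family's seed, stood at 47.37 and 44.65 CPM in Blank, 47.53 and 29.37 CPM in Lv5NC, 29.54 and 47.46 CPM in OV55666, 37.74 and 30.98 CPM in Lv3NC, and 28.01 and 645.9 CPM in KD553. In KD553 replicate 2 the 5p arm was at its highest and the 3p arm at its lowest of the 10 libraries.

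The group means of the 3p arm ran from Blank (406.9 ± 18 CPM, SD, n = 2) through Lv3NC (351.2 ± 33.49), Lv5NC (240.9 ± 11.91) and OV55666 (224.7 ± 32.51) to KD553 (210.1 ± 67.49). The libraries of Blank lay above those of Lv3NC and these above those of Lv5NC, while the last 3 groups overlapped. The means of the 5p arm were 337 ± 436.9 CPM in KD553, 46.01 ± 1.926 CPM in Blank, 38.5 ± 12.67 CPM in OV55666, 38.45 ± 12.84 CPM in Lv5NC and 34.36 ± 4.778 CPM in Lv3NC, with overlap between all neighbours. Without KD553 replicate 2 the 5p arm stayed between 28.01 and 47.53 CPM.

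In reads, the 5p arm made up 8.64% to 19% of all miR-424 reads in 9 libraries. In KD553 replicate 2 it made up 79.9% (95% exact interval 78.4 to 81.4, from 2212 reads of the 5p and 556 of the 3p arm), against 9.8% (8.29 to 11.5) in KD553 replicate 1. Such an interval covers the error of counting reads and not the spread between cultures or amplification by PCR. The ratio of both arms needs no scaling between libraries.

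**Figure D3:**
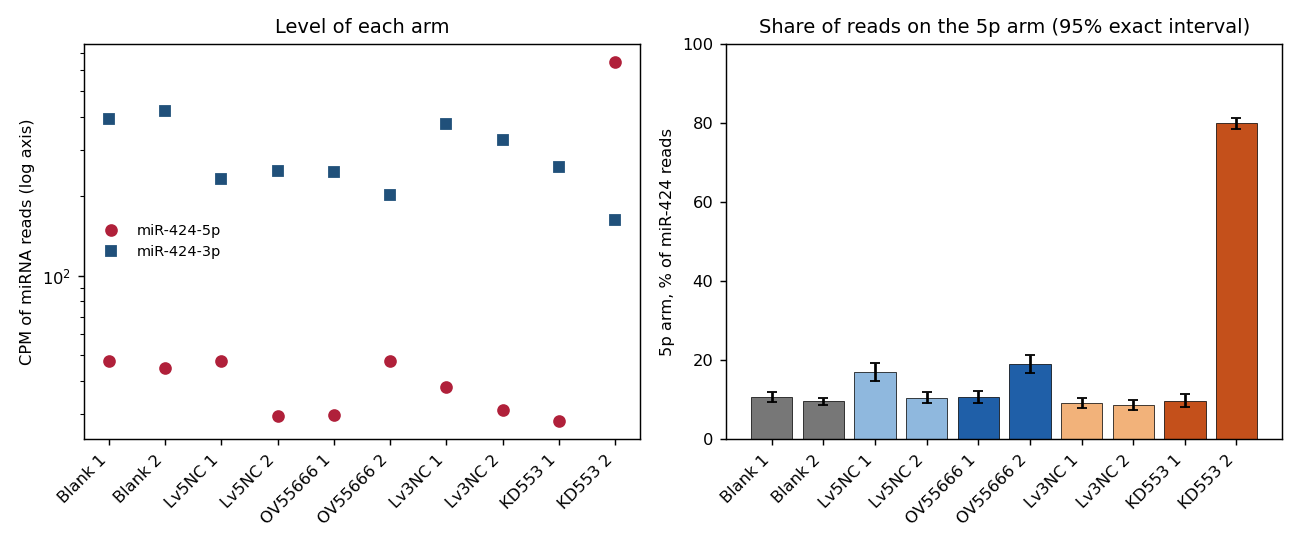
Left, level of both arms of miR-424 in each library, in CPM of miRNA reads on a log axis. Right, share of miR-424 reads on the 5p arm, in percent, with 95% exact binomial intervals as error bars; KD553 replicate 2 stands at 79.9% and the other 9 libraries at 8.64% to 19%.

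The change of arm in KD553 replicate 2 was not limited to miR-424. Among the 53 hairpins with at least 500 reads on each arm over all libraries, 22 had a 5p to 3p ratio in this library outside the range of the other 9. miR-424 showed the second largest shift, from a median log2 ratio of -3.08 to 1.99, a shift of 5.07, after miR-29c, which moved the other way with a shift of -6.08. The hairpins read mostly from the 3p arm in all other 9 libraries and mostly from the 5p arm in this one numbered 3: miR-424, miR-140 and miR-340. For 1 hairpin the reverse held. The markers of white blood cells and the RF share were also outside the range of the other libraries there, and their part in the arm ratios was not tested. Only KD553 replicate 2 was compared with the others in this way. Among the other 9 libraries the log2 ratio stayed between -3.39 and -2.08 for miR-424. It ran from -8.01 to 6.52 for miR-27b and from 2.33 to 11.2 for let-7e, so large differences in arm ratio were not particular to KD553 replicate 2.

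miR-15b-3p, the minor arm of miR-15b, stood at 1.537 to 5.43 CPM in 9 libraries and at 16.64 CPM in KD553 replicate 2. The 5p arm held at least 98.4% of the reads of miR-15b in each library. miR-497-5p, partner of miR-195, stood at 21.99 and 25.44 CPM in Blank, 12.02 and 10.23 CPM in Lv5NC, 10.41 and 20.37 CPM in OV55666, 12.78 and 19.8 CPM in Lv3NC, and 17.58 and 23.94 CPM in KD553. Both Blank libraries lay above those of Lv5NC, OV55666 and Lv3NC.

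The untested rows were near the limit of detection, where 3 reads correspond to 0.302 to 0.876 CPM. miR-195-3p had 10 and 25 reads in Blank and 0 to 3 reads in each of the other 8 libraries. miR-195-5p had 5 reads in Blank replicate 2, 3 in each KD553 library, 1 in Lv5NC replicate 1 and 0 in the other 6. miR-497-5p exceeded miR-195-5p 27.3-fold to 50.6-fold in the 4 libraries with a read of the latter. miR-15a-3p had 6 reads in Blank replicate 1 and 1 in KD553 replicate 2, and miR-16b-3p had 1 read, in Lv5NC replicate 1.

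Overexpression against its control asked whether the family follows more lncRNA55666. No member passed an adjusted p of 0.05 in limma (Benjamini-Hochberg over 448 miRNAs), where 0.223% of all tested miRNAs passed. Also 0 members had an unadjusted p under 0.05, against 44 of the 448 miRNAs (9.82%), and 0 passed with voom weights. Of the 8 members, 6 had a positive log2 fold change, with a median of 0.31 (-0.02 without OV55666 replicate 2 and 0.20 without Lv5NC replicate 1) against -0.08 over all tested miRNAs and 0.16 over the known ones. Adjusted p-values of the members ran from 0.825 to 0.998. The fold changes were 0.46 (SE 0.51) for miR-16b-5p, 0.45 (SE 0.92) for miR-15b-5p, 0.30 (SE 0.40) for miR-16a-5p and 0.00 (SE 1.18) for miR-424-5p. miR-15b-5p was the 1 member with both OV55666 libraries above both Lv5NC libraries, as 19.9% of all tested miRNAs were. It was so with TMM and median-of-ratios scaling but not when scaled to the miRNA total or to all reads. The count of members with both libraries lower was 0, against 28.3% of all tested miRNAs. With 4 libraries in a comparison, the smallest p of an exact permutation test on 1 member alone is 1 in 3, so none was run.

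Knockdown against its control asked the same of less lncRNA55666. Again 0 members passed with limma, where 0% of all tested miRNAs passed, and 0 passed with voom weights. At an unadjusted p under 0.05 there were 0 members and 36 of all tested miRNAs (8.04%). With TMM scaling, 7 of the 8 members had a positive log2 fold change, with a median of 0.62 against -0.18 over all tested miRNAs and 0.29 over the known ones. Without KD553 replicate 2 these medians were 0.20, 0.00 and 0.20. The members' median was 0.26 without Lv3NC replicate 1 and 0.98 without Lv3NC replicate 2. Scaled to all reads in the table, the median over the members was -0.17, and miR-15b-5p, miR-16a-5p and miR-497-5p turned negative (-0.19, -0.22 and -0.17). miR-15a-5p, miR-16a-5p and miR-16b-5p had both KD553 libraries above both Lv3NC libraries, as 16.5% of all tested miRNAs had. With median-of-ratios scaling miR-15a-5p did not, and none of these members did when scaled to all reads. miR-424-3p had both below, as 15% of all tested miRNAs had, and did so under each of the 4 scalings.

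The 2 largest of these fold changes rested on KD553 replicate 2. miR-424-5p differed by 1.96 on the log2 scale (SE 1.18, 95% interval -0.73 to 4.65, adjusted p = 0.656, limma). With that library as the only KD553 library the difference was 4.22, and with the other one it was -0.29. miR-15a-5p differed by 1.78 (SE 0.85, interval -0.14 to 3.69, adjusted p = 0.621, limma). It differed by 3.28 with KD553 replicate 2 alone and by 0.28 with replicate 1 alone. A fit with a lone library does not measure the spread of its group and takes it from the other groups, so no p-value is given. miR-15b-3p went from 1.13 to -0.015 without KD553 replicate 2. Less tied to 1 library were miR-16b-5p at 0.86 (SE 0.51, adjusted p = 0.656) and miR-424-3p at -0.77 (SE 0.41, adjusted p = 0.642), and neither passed. miR-16b-5p stayed between 0.39 and 1.27, and miR-424-3p between -1.09 and -0.45, with any 1 library left out.

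In KD553 replicate 2, 4 of the 8 tested members (miR-15a-5p, miR-15b-3p, miR-16b-5p and miR-424-5p) were at their highest of the 10 libraries, and 1 (miR-424-3p) was at its lowest. Of all tested miRNAs 17.4% were at their highest there, of the known ones 32%, and 15.6% of all were at their lowest. By the difference from the median of the other 9 libraries miR-424-5p ranked 8 and miR-15a-5p 16 of 448. The white blood cell marker miR-223-3p stood at 1018 CPM there against 8.547 to 28.41 CPM, and its part in the members' levels was not tested.

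**Figure D4:**
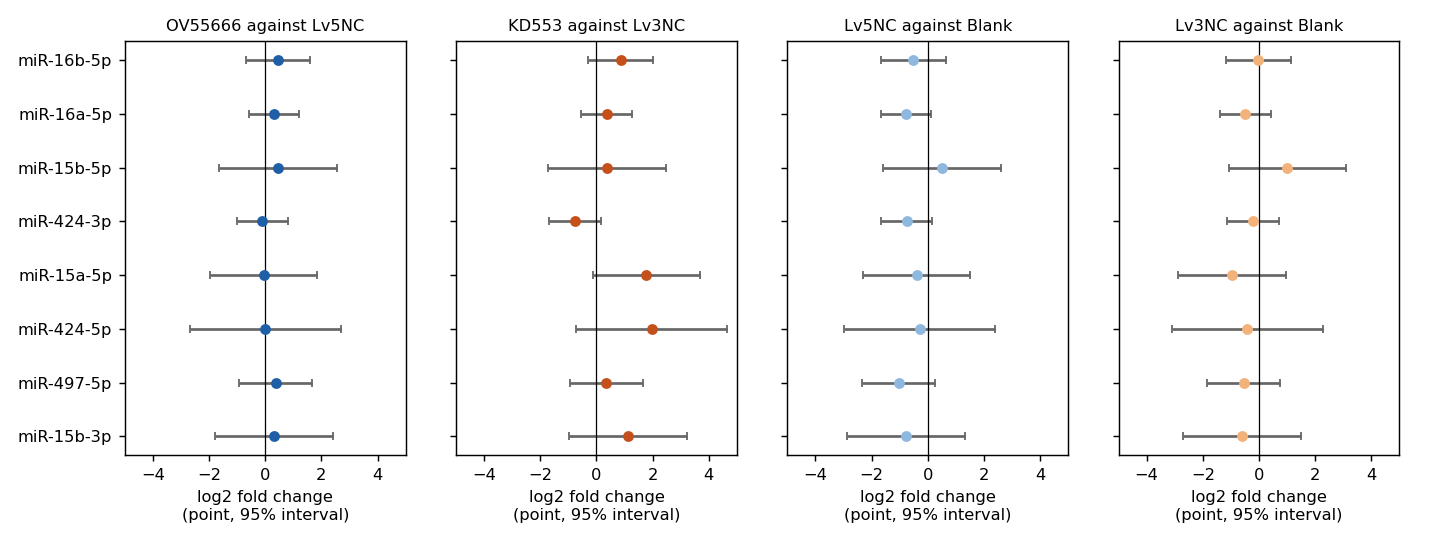
Difference of group means on the log2(CPM + 1) scale for the 8 tested members in each of 4 comparisons, with 95% limma intervals as error bars. Every interval includes 0. The widest belong to miR-424-5p, from -0.73 to 4.65 in knockdown.

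The difference between both effects, overexpression minus knockdown, was tested in the same fit. The share of all tested miRNAs that passed was 0.223%, and 0 members did with limma or with voom weights (0 at an unadjusted p under 0.05, against 6.25% of all), with adjusted p-values from 0.759 to 0.999. miR-424-5p had a difference of -1.96 (SE 1.67), miR-15a-5p of -1.84 (95% interval -4.54 to 0.87) and miR-424-3p of 0.67 (SE 0.58). With KD553 replicate 1 left out, miR-424-5p was at -4.20, and with replicate 2 left out at 0.31.

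The controls were each compared with Blank, and both comparisons share the Blank libraries. In both, 0 members had an unadjusted p under 0.05, against 7.59% of all tested miRNAs for Lv5NC and 5.58% for Lv3NC, and 0 passed with voom weights. In Lv5NC against Blank, 0 members passed, where 0% of all tested miRNAs passed, and 7 of 8 had a negative log2 fold change, with a median of -0.64 against 0.13 over all and -0.24 over the known ones. Both libraries were below both Blank libraries for 5 members (miR-15a-5p, miR-15b-3p, miR-16a-5p, miR-424-3p and miR-497-5p), as for 20.1% of all tested miRNAs, and above for 0, against 26.6%. The largest was miR-497-5p at -1.03 (SE 0.58, adjusted p = 0.684, limma). In Lv3NC against Blank, 0 members passed, where 0.223% of all did, and 7 of 8 had a negative value, with a median of -0.45 against -0.17 over all and -0.25 over the known ones. Both libraries were below Blank for 6 members, those 5 and miR-424-5p, against 20.3% of all, and above for 0, against 14.7%. With all reads as the scale, 6 members lay below in Lv5NC, without miR-15a-5p but with miR-16b-5p and miR-424-5p. The 6 include miR-15b-3p, which was below the filter in the fit on that scale. With all reads 3 lay below in Lv3NC (miR-15a-5p, miR-16a-5p and miR-424-5p). With median-of-ratios scaling 4 lay below in Lv3NC, without miR-16a-5p and miR-424-3p. The shares over all tested miRNAs are for TMM scaling only, so the counts on other scales have no such share beside them. All reads moved the log2 fold changes of the miRNAs tested under both scalings by a median of -0.48 in Lv5NC and -0.35 in Lv3NC. miR-15b-5p was the exception to the negative values in both comparisons, at 0.51 (SE 0.92) and 1.01 (SE 0.92), and turned to -1.23 and -0.72 without Blank replicate 2.

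Since it was not checked how well reads of miR-16a and miR-16b, or of miR-15a and miR-15b, were told apart, the forms were also summed. Both forms of miR-16 together gave log2 fold changes of 0.43 (SE 0.45) for overexpression and 0.72 (SE 0.45, adjusted p = 0.66, limma) for knockdown. The 5p arms of miR-15a and miR-15b together gave 0.45 (SE 0.82) and 0.48 (SE 0.82). Neither sum passed the threshold in any comparison.

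Other miRNAs tied to the family by position or function were described by counts. The neighbours of miR-424 on the X chromosome (miR-542 and miR-450; 2 of 4 rows tested) gave 0 calls in the 4 comparisons, with limma or voom weights, and 0 unadjusted p-values under 0.05. miR-542-5p stood at 141.3 CPM in KD553 replicate 2, within the 114.2 to 227.2 CPM of all libraries, while miR-450-5p stood at 14.6 CPM there, from 50 reads, against 1.42 to 5.72 CPM elsewhere. miR-450-5p passed the filter only through Blank replicate 1 and KD553 replicate 2, and did not pass without the latter. Its high level in KD553 replicate 2 is thus partly built into its being tested. miR-103 and miR-107, whose seed is that of the family moved by 1 base, gave 0 calls in the same 4 comparisons. At an unadjusted p under 0.05 there was 1 of the 2 in knockdown and 1 in Lv3NC against Blank. The log2 fold changes in knockdown were 1.79 for miR-103-3p and -0.46 for miR-107-3p, and 1.31 and -0.78 without KD553 replicate 2.

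Of the miRNAs that, like this family, restrain entry into the cell cycle (let-7, miR-26, miR-34 and miR-449), 12 of 16 rows were tested and 0 were called, with 1 at an unadjusted p under 0.05, in knockdown. Their log2 fold changes were positive for 12 of 12 in overexpression (median 0.26) and 11 of 12 in knockdown (median 0.19), and negative for 12 of 12 in Lv5NC against Blank (median -0.53) and 8 of 12 in Lv3NC against Blank (median -0.27). Of these medians, that in knockdown became -0.38 when scaled to all reads and 0.06 without KD553 replicate 2, and the other medians kept their sign under the 4 scalings. let-7b-5p and let-7a-5p, the most abundant of them, had log2 fold changes of 0.21 and 0.14 in overexpression and of 0.07 and 0.05 in knockdown. The miRNAs known to favour proliferation (miR-17, miR-20, miR-93, miR-106, miR-221 and miR-222) were taken with both arms, miR-93-3p, miR-106b-3p and miR-221-5p among them. Of their 12 rows, 10 were tested and 0 were called, with 1 at an unadjusted p under 0.05 in each of the 4 comparisons. Their medians were 0.47 in overexpression and 0.67 in knockdown (0.41 without KD553 replicate 2), positive under the 4 scalings, and -0.69 and -0.55 in the controls against Blank. miR-222-3p and miR-221-3p had log2 fold changes of 0.65 and 0.63 in overexpression and of 0.49 and 0.52 in knockdown. The medians of both lists had the sign of those of all known miRNAs in each comparison.

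The known miRNAs whose levels followed the 3 most abundant members most closely were ranked by Pearson's r of log2(CPM + 1) over the 10 libraries, as a description. For miR-16b-5p they were miR-181b-5p (r = 0.976) and the scarce miR-181d (0.912, mean level 9.899 CPM) and miR-361-3p (0.847, mean level 3.64 CPM). For miR-16a-5p they were miR-23b-3p (0.935), miR-362-5p (0.882) and miR-99a-3p (0.852). For miR-15b-5p they were miR-505-3p (0.932), miR-199c-5p (0.852) and miR-181b-5p (0.68). Without KD553 replicate 2 these r were 0.663 to 0.973. The order for miR-15b-5p rested on Blank replicate 2, where miR-505-3p stood at 0.1006 CPM and miR-199c-5p at 0.2011 CPM. Without it r was 0.598 for miR-505-3p, 0.703 for miR-199c-5p and 0.892 for miR-181b-5p. All such values share libraries, depth and scaling. Between members, miR-15a-5p and miR-424-5p had r = 0.936, which became 0.581 without KD553 replicate 2, and miR-15b-5p and miR-16b-5p had r = 0.669, which became 0.892 without Blank replicate 2.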

How the data were processed

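Small RNA libraries of goat mammary gland cells were analysed from 1 table of 2233 identifiers. The authors deposited read counts in its Count columns (so named, per the file headers), with no scaling. Of 22330 cells, 11323 (50.7%) hold a missing mark and 0 hold a zero, so missing cells were read as 0, and the unit was recorded as other. The TPM columns deposited by the authors were used only to check library totals. 2 columns of per-sample values, both TPM and both headed as Lv3NC replicate 1, were not used. Aligner, miRNA annotation and genome build were not given in the sources used here. Columns of KD553 carry the sample titles, but the description fields number these libraries otherwise, so which KD553 library is number 1 is uncertain.

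miRNA counts were scaled by TMM (trimmed by 30% on ratios and 5% on levels). A miRNA was tested if 2 or more of the 10 libraries reached 5 CPM, which left 448. The model was fitted in R 4.3.3 by limma 3.58.1 (statmod 1.5.0) to log2(CPM + 1) of all 10 libraries, with 5 group means, an abundance trend and robust moderation, with 5 residual degrees of freedom. A count model was not used because of the missing marks. The pseudocount of 1 understates fold changes of low miRNAs. Tests were two-sided, with Benjamini-Hochberg adjustment over 448 miRNAs and a threshold of 0.05, and the fit was tested on simulated data. Shares carry 95% exact binomial intervals. Besides all members, the text names the 3 miRNAs most like each of the 3 most abundant members and, of each companion list, the 2 most abundant as examples; other miRNAs were named after their values were seen. The members and lists were chosen with earlier results of these data known. The alternatives were another pseudocount, other filters and scalings, known miRNAs only, only the groups compared, voom weights, summed forms, a replicate block and leaving out each library. The block with crossed KD553 numbers was added after seeing the data.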

Additional observations from a re-analysis of the deposited data

How the results depend on the processing

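The fold changes of the tested members were followed over the alternatives. In the difference of effects this was done only for miR-15a-5p, miR-424-3p and miR-424-5p. Over 22 alternatives, 737 values were recomputed for 35 fold changes of members. Of these, 699 kept their direction and stayed short of the threshold, 3 passed it and 35 changed sign; the 3 were the values without KD553 replicate 1 given for miR-424-5p (knockdown, and the difference of effects) and miR-15a-5p (knockdown). Only the alternatives that leave out a library made a member pass. Where a member passed, KD553 held 1 library, whose own spread was not measured, so no p-value is given. The cause of the changes below was not tested, except that scaling to all reads moved the log2 fold changes of the miRNAs tested under both scalings by a median of -0.56 in knockdown, 0.11 in overexpression, -0.48 in Lv5NC and -0.35 in Lv3NC against Blank, and the miRNA total by a median of -0.18 in overexpression and -0.35 in Lv3NC. Median-of-ratios scaling moved them by a median of 0.15 in Lv5NC and 0.12 in Lv3NC.

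In overexpression, all reads turned miR-15a-5p from -0.060 to 0.048 and miR-424-3p from -0.11 to 0.006. miR-424-5p, at 0.003, became -0.031 with no filter, -0.073 with the filter at 50 CPM, -0.098 with median-of-ratios scaling, -0.18 with the miRNA total and -0.13 with known miRNAs only. In knockdown, all reads turned miR-15b-5p to -0.19, miR-16a-5p to -0.22 and miR-497-5p to -0.17. In Lv3NC against Blank, miR-16b-5p, at -0.018, became 0.073 with no filter, 0.028 with the filter at 50 CPM, 0.11 with median-of-ratios scaling and 0.20 with known miRNAs only, and miR-424-3p became 0.00043 with known miRNAs only.

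The number of all tested miRNAs past the threshold was 1 for overexpression and 0 with voom weights, 0 for knockdown and 1 with a pseudocount of 5, with no filter and with all reads, 0 for Lv5NC against Blank and 1 with all reads, 1 for Lv3NC against Blank and 2 with a pseudocount of 5 and with no filter, and 1 for the difference of effects and 0 with voom weights. miR-328-3p was the 1 miRNA past the threshold in overexpression, in Lv3NC against Blank and in the difference of effects, and is named after its values were seen.

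Leaving out 1 library at a time gave 1 to 3 such miRNAs in overexpression, 0 to 15 in knockdown, 0 to 2 in Lv5NC, 1 to 2 in Lv3NC and 1 to 7 in the difference of effects, with 0 to 2 members in knockdown and 0 to 1 in the difference. The highest counts of knockdown and of the difference came without KD553 replicate 1, those of overexpression and Lv5NC without Lv5NC replicate 2, and that of Lv3NC without Blank replicate 1. Each such fit left 1 library in a group, whose own spread was not measured, so these counts are not read as results. Fold changes that changed sign ran, in overexpression, from -0.54 to 0.37 for miR-15a-5p, -0.36 to 0.94 for miR-15b-3p, -0.007 to 0.64 for miR-16a-5p, -0.3 to 0.04 for miR-424-3p, -0.33 to 0.36 for miR-424-5p and -0.084 to 0.77 for miR-497-5p. In knockdown they ran from -0.015 to 2.28 for miR-15b-3p, -0.037 to 0.74 for miR-15b-5p, -0.29 to 4.22 for miR-424-5p and -0.013 to 0.65 for miR-497-5p. In Lv5NC they ran from -1.23 to 2.21 for miR-15b-5p and -0.74 to 0.053 for miR-424-5p, and in Lv3NC from -0.72 to 2.72 for miR-15b-5p and -0.56 to 0.49 for miR-16b-5p. In the difference, miR-424-5p ran from -4.20 to 0.31, while miR-15a-5p and miR-424-3p kept their sign. The other members were not followed there.

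The labels do not say that equal replicate numbers mark a shared batch. Deviations of same-numbered libraries correlated at -0.0213 to 0.319 over 10 pairs of groups, with 8 of them above 0.1. The others were KD553 with Blank (-0.0213) and KD553 with Lv5NC (0.0881), and the numbering of KD553 is itself uncertain. Since not all 10 were above 0.1, the numbers were not taken as pairs. A shared effect of the number in some groups is not excluded. With the number as a replicate block the fit called 1, 0, 0, 1 and 1 miRNAs in the 5 comparisons and 0 members, and miR-15a-5p in knockdown had an adjusted p of 0.353 (limma). With the KD553 numbers crossed it called 1, 0, 0, 1 and 1 miRNAs. At 50 CPM, miR-15b-3p and miR-497-5p were below the filter and have no value, and with all reads miR-15b-3p has none. Depth limits the miR-195 arms, whose counts of 0 allow up to 3 reads.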
